A study of Mus musculus with 7 samples.

Results

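The suppressive mediators of regulatory T (Treg) cells considered here are 10 genes: Il10, Ebi3, Tgfb1, Areg, Lrrc32, Entpd1, Nt5e, Gzmb, Lgals1 and Fgl2. Their loci were read by ATAC-seq. A transposase inserts adapters where DNA is open, and the reads at a site then count its accessibility. A peak belonged to a locus when it overlapped the gene, or lay within 100 kb of it with that gene the nearest protein-coding gene. This gave 59 of the 50213 peaks of the deposited table, at 9 of the 10 genes. Nt5e had 14 peaks, Entpd1 13, Lrrc32 9, Il10 7, Gzmb 6, Tgfb1 4, Lgals1 3, Areg 2 and Fgl2 1. Ebi3 had none: 13 peaks lay within 100 kb of it, the nearest at 1914 bp, and each was assigned to another gene.

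Treg cells were sorted from the spleens of mixed bone marrow chimeras, mice rebuilt with CD45.1+ marrow and CD45.2+ marrow at a 1:1 ratio. The CD45.2+ marrow was Foxp3Cre (WT) or Foxp3Cre with both Opa1 alleles floxed (Opa1 KO), so that Cre, made where Foxp3 is expressed, deletes Opa1 there. Both groups therefore carry Foxp3Cre, both developed beside CD45.1+ cells, and the sorted cells were CD45.2+, CD45.1-, CD4+ and positive for Foxp3-YFP. There were 4 WT and 3 KO libraries. The comparison asks how loss of Opa1, a GTPase that fuses the inner mitochondrial membrane and shapes its cristae, alters open chromatin in these cells. The sources used here do not give age, sex or recipient strain.

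Treg cells restrain other immune cells by several routes. They secrete inhibitory cytokines, hold latent TGF-beta on their surface, turn extracellular ATP into adenosine, and release cytotoxic or lectin effectors; splenic effector Treg cells are known for higher levels of several of these. Il10 encodes interleukin-10, Tgfb1 encodes TGF-beta1, and Ebi3 encodes a chain shared by IL-27 and IL-35. Areg encodes amphiregulin, a ligand of the EGF receptor that acts in tissue repair. Lrrc32 encodes GARP, which docks latent TGF-beta. Entpd1 and Nt5e encode CD39 and CD73, the ectoenzymes that act in turn to convert ATP to AMP and AMP to adenosine. Gzmb encodes granzyme B, Lgals1 encodes galectin-1, and Fgl2 encodes a secreted fibrinogen-like protein.

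Start regions of 4 loci are shown because the peaks over them are described below. Both Entpd1 starts are given, since their levels are set side by side. The Areg start is given because a KO library had no count there, and the Tgfb1 and Gzmb starts for comparison. All are RefSeq windows of GRCm38.p6, from 250 bases before to 50 after an annotated start, written 5′ to 3′ on the strand of the gene. Capitals mark matches to the motifs described after them.
Entpd1, chr19:40612116-40612415, + strand: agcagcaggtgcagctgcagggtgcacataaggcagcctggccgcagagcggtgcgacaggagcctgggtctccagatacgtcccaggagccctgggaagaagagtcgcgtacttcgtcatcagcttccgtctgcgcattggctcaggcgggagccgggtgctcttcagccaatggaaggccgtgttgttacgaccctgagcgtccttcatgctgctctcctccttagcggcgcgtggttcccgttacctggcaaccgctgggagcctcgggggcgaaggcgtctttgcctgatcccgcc
Entpd1, chr19:40659520-40659819, + strand: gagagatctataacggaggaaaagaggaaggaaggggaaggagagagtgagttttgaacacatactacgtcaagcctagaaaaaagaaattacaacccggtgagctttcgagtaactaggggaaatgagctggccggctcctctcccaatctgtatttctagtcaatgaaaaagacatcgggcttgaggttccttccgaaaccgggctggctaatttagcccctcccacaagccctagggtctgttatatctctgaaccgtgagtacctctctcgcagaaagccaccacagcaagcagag
Areg, chr5:91139349-91139648, + strand: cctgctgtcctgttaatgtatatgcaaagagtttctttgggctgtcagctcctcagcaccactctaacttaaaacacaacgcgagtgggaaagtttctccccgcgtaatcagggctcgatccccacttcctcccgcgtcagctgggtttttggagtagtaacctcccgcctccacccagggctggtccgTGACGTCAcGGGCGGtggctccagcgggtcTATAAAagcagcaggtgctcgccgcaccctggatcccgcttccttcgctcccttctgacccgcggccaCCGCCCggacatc
Tgfb1, chr7:25686752-25687051, + strand: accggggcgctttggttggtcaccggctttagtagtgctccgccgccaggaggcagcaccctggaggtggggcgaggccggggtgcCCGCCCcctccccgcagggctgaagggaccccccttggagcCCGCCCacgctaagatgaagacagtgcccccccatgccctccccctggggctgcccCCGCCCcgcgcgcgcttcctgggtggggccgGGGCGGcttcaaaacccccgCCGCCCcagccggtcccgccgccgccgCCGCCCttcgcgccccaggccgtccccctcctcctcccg
Gzmb, chr14:56262285-56262584, - strand: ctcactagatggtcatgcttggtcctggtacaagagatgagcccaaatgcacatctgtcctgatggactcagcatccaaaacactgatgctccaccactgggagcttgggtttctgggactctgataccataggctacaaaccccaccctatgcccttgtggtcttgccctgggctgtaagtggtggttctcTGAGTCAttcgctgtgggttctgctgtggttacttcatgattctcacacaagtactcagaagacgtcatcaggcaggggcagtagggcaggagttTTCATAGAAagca

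The RefSeq table held 8 start windows for 7 of the 10 genes, and none for Il10, Lgals1 and Lrrc32. A member peak covered 300 of the 300 bases at the first Entpd1 window, 295 at Areg, 290 at Tgfb1, 287 at Gzmb, 247 at Nt5e, 240 at Fgl2 and 210 at the second Entpd1 window. No peak touched the Ebi3 window. The Tgfb1 window had a GC content of 77.0% with 30 CpG and the Nt5e window 71.0% with 23, against medians of 52.7% and 7 over 32851 windows. The first Entpd1 window had 64.0% and 23 CpG, and the second 48.7% and 10. The Areg window had 59.3% and 21, Fgl2 51.7% and 12, Ebi3 56.3% and 2, and Gzmb 51.0% and 2. So the Gzmb and Ebi3 starts held few CpG, and the Tgfb1, Nt5e and first Entpd1 starts many.

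Motifs were searched on both strands, counting matches that overlap. The GC box GGGCGG was in 4 of the 8 windows and in 35.7% of all windows, with 6 matches at Tgfb1, 4 at Nt5e, 2 at Areg and 1 at Fgl2. The AP-1 motif TGANTCA was in 2, at Gzmb and Fgl2, and in 7.81% of all windows. The STAT motif TTCNNNGAA was in the same 2 windows, beginning 36 bases before the start at Fgl2 and 37 after it at Gzmb, and in 8.3% of all. The Areg window held the CRE motif TGACGTCA, present in 1.79% of all windows, beginning 61 bases before the start. It also held the TATA motif TATAAA, in 13.6% of all, 31 bases before the start. No window of these genes held the E-box CACGTG (7.15% of all) or the forkhead motif TGTTTAC (3.65%), and the Entpd1 windows held no motif of the 7. A match is a description of the letters and not of a bound site, and no match says nothing of a factor outside these windows.

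Library totals in peaks ran from 1534394 to 3384325 counts, KO replicate 1 being the deepest. The member peaks took between 0.0999% and 0.112% of each library. Between WT replicates 2 and 3 no difference beyond sampling noise was found (a chi-square test over 33169 peaks gave p = 0.263), while every other pair within a genotype differed. They may be 1 library and were counted as 1 sample, so that each mean ± SD has n = 3 in both genotypes. The tests kept the 7 libraries, so they may count 1 library as 2. With WT replicates 2 and 3 summed, 0 member peaks and 0 member gene sums were called. Averaging WT replicates 2 and 3 can narrow a WT SD. A mean ± SD given without its single libraries may thus understate the WT spread. Of the T cell and Treg markers, 8 of 8 had a peak, and their summed level was 1613 to 1733 CPM (counts scaled to a common total in peaks) in WT and 1661 to 1746 in KO. In WT and KO in turn, summed CD8 T cell markers were 44.1 to 60.4 and 42.9 to 62.4 CPM, NK markers 195 to 231 and 229 to 232, erythroid markers 36.2 to 56.8 and 49.5 to 68.2, and the B cell gene Pax5 8.45 to 18.7 and 6.19 to 12.2. The B cell genes Cd79a and Ms4a1, the NK gene Ncr1 and the myeloid genes Lyz2 and Csf1r had no peak. The Opa1 peak had 35.4 ± 1.1 CPM in WT, against 33.7 ± 6.65 in KO libraries, and does not check the labels, since the sources used here do not say which exons are deleted.

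None of the mediator loci differed between genotypes past the threshold. Of the 59 peaks, 56 passed the filter on low counts and were tested. In edgeR's quasi-likelihood test, adjusted over 38041 peaks, 0 of the 56 passed an adjusted p of 0.05, where 0.0867% of all tested peaks did, 0.0394% lower and 0.0473% higher in KO. The smallest adjusted p was 0.328. Summed per gene, 0 of 9 genes passed, where 0.346% of 13290 gene sums did (0.248% lower and 0.0978% higher), and the smallest adjusted p was 0.156. Limma-voom also called 0 member peaks and 0 member genes. DESeq2 called 0 too, but gave no adjusted p for 5 of the 9 member peaks with an unadjusted p under 0.05 in edgeR, so its count of peaks does not cover these.

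At an unadjusted p under 0.05 there were 9 member peaks of 56, or 16.1%, where 9.46% of all tested peaks reached it. Of these 8 were lower in KO and 1 was higher. Of the 8, the peak at the second Entpd1 start passed the filter on low counts only through WT libraries. It also enters the count of groups without overlap. All tested peaks gave 4.76% lower and 4.70% higher. The count of 9 depended on the setting. With counts halved, 4 of 41 member peaks had such a p, where 2891 of 25333 of all did. With the replicate number as a block it was 5 of 56, against 3085 of 38041. With WT replicates 2 and 3 summed it was 7 of 54, against 3617 of 37348. DESeq2 gave 7 of 56, against 3091 of 38041, and limma-voom 8 of 56, against 3915 of 38041. Leaving out any 1 library left 4 to 8 such member peaks, of 53 to 57 tested. The fewest were 4 of 53 without WT replicate 2, where 3660 of 36457 of all peaks had such a p. The most were 8 of 54 without WT replicate 1, where 2832 of 34932 did. Of the 56 log2 fold changes 35 were below 0, with a median of -0.075, against 50.3% below 0 and a median of -0.002 over all peaks. Groups did not overlap at 7 of the 56 (9.32% of all peaks), 5 with KO below WT and 2 with KO above, against 4.47% and 4.84% of all. Peaks of 1 locus share cells and libraries and are not independent.

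**Figure D1:**
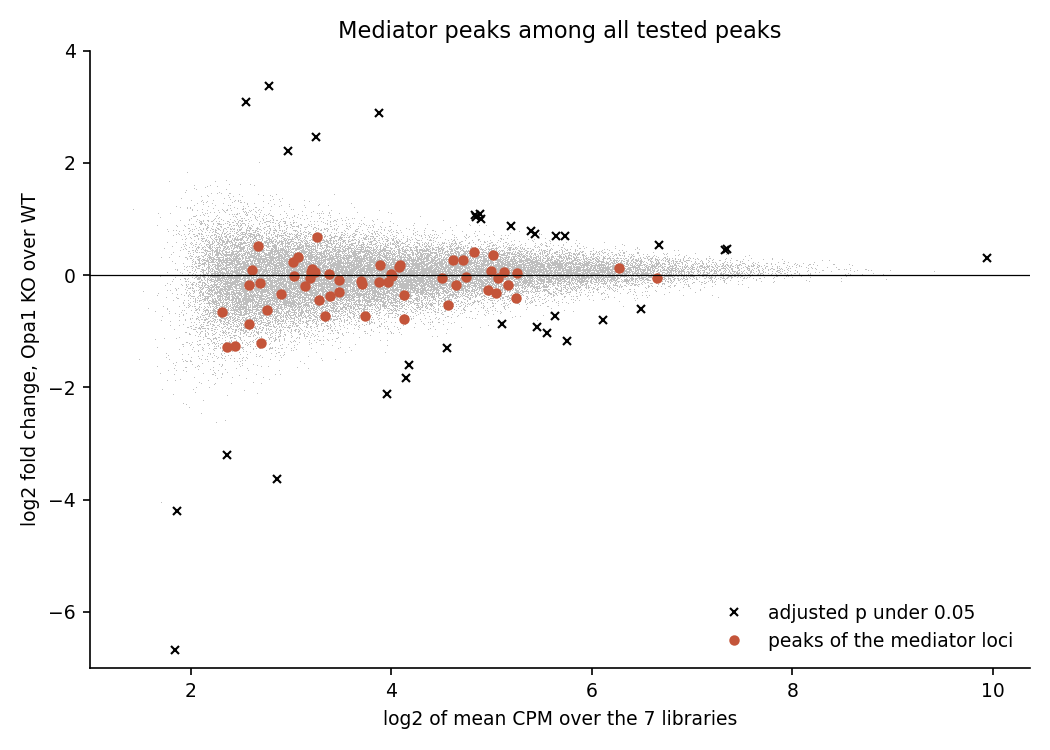
Log2 fold change of KO over WT (vertical) against the log2 of the mean CPM over 7 libraries (horizontal) for all 38041 tested peaks. The 56 tested peaks of the mediator loci (red circles) lie between -1.28 and 0.68, within the cloud of peaks not called (grey), and the 33 called peaks (crosses) include none of them.

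Member peaks were of ordinary size: their median width was 343 bp, against 319 bp over the table, and their median WT level was 12.8 CPM, against 9.33. Per kb of peak, the summed WT level was highest at Entpd1 (66.4 ± 1.89 CPM per kb, SD, n = 3). Lgals1 (55.9 ± 9.21), Nt5e (53.5 ± 1.42), Gzmb (51.2 ± 4.53), Fgl2 (49.4 ± 9.88) and Tgfb1 (45.9 ± 0.152) followed. From Lgals1 to Tgfb1, neighbours in the order differed by less than the larger of their SDs. Lrrc32 had 39.1 ± 1.71, Il10 31.0 ± 4.01 and Areg 18.8 ± 6.65 CPM per kb, so Areg was the least open of the 9 loci per length of peak. The Entpd1 value leans on the peak over its first start, which also overlaps Tctn3. That peak had 222 CPM per kb in WT and gave 101 of the 286 CPM of the locus. The rank of Entpd1 without it was not computed.

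**Figure D2:**
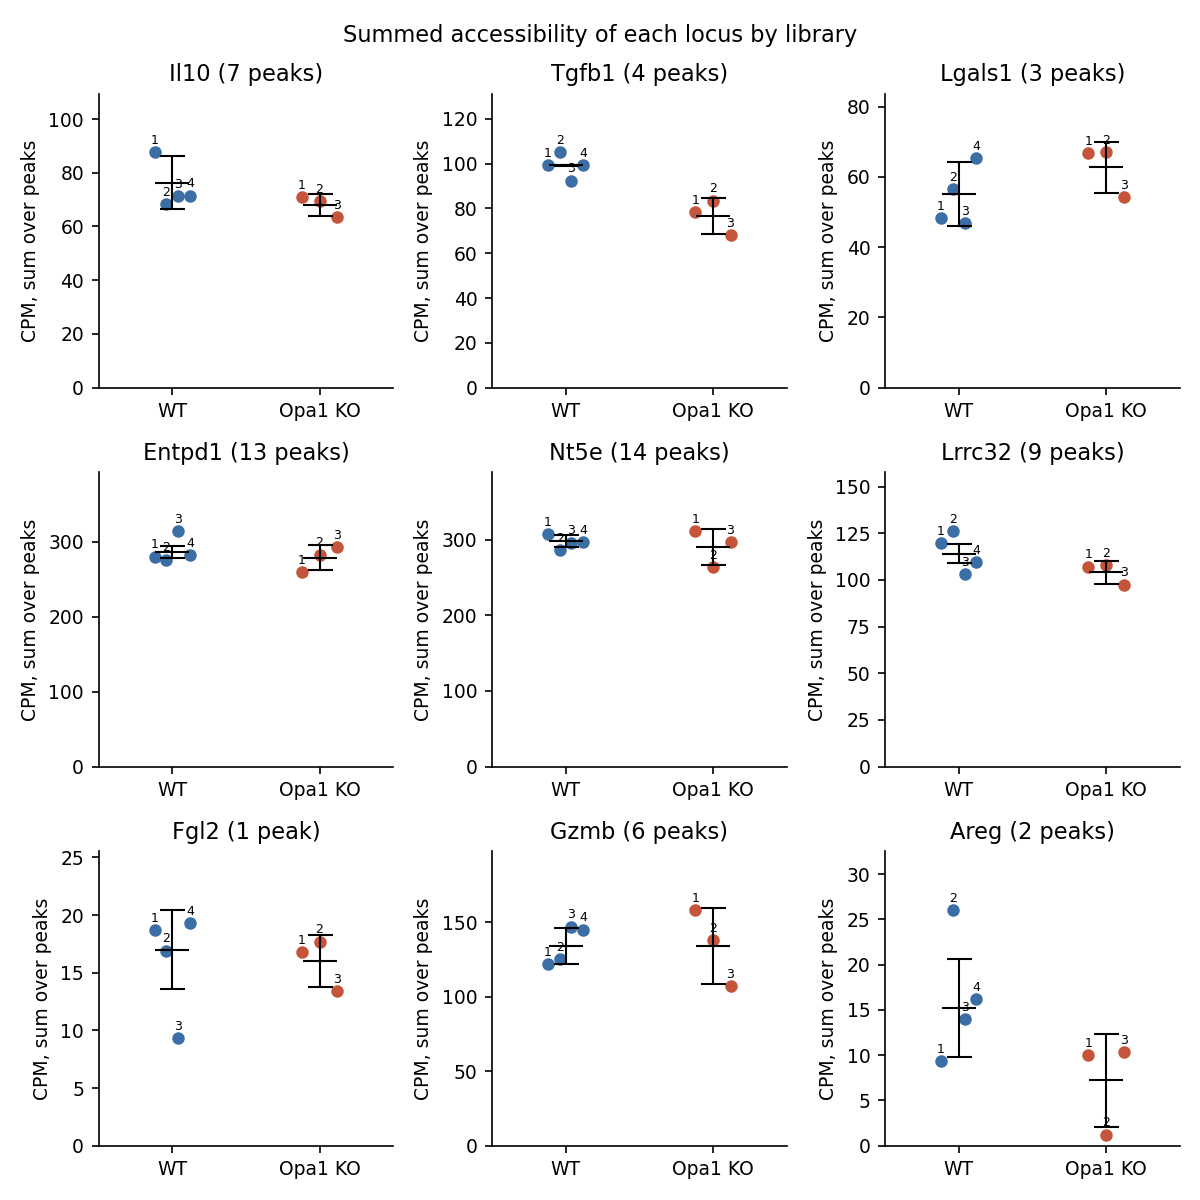
Summed CPM over the peaks of each locus (vertical, from 0) in each library, with WT in blue and Opa1 KO in red. Digits are replicate numbers, and black bars are the mean ± SD with WT replicates 2 and 3 averaged. The Tgfb1 panel has its KO libraries (68.1 to 83.5) below every WT library (92.3 to 105), and in the other panels the groups overlap.

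None of the cytokine loci passed the test. Tgfb1 was the locus whose summed KO libraries all lay below the WT libraries. It lies on chromosome 7 from 25687002 to 25705077. Its 4 peaks together had 99.4, 105, 92.3 and 99.4 CPM in WT replicates 1 to 4 and 78.3, 83.5 and 68.1 in KO replicates 1 to 3. Every KO library was below every WT library, and 9.61% of all gene sums had groups without overlap, 4.89% with KO below and 4.72% above. The means were 99.2 ± 0.328 and 76.6 ± 7.82 (SD, n = 3), the WT SD being narrow because replicates 2 and 3 were averaged. The log2 fold change was -0.37 (SE 0.12, 95% interval -0.62 to -0.13), and the adjusted p in edgeR was 0.175. It thus did not pass, and its unadjusted p, like that of Areg, was under 0.05, as for 11.4% of all genes (5.99% lower and 5.41% higher). In sorted bulk cells, fewer cells with an open site and less opening per cell cannot be told apart.

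Within the Tgfb1 locus, the peak over the start and the others had different values, and the difference between peaks was not tested. The peak over the start (25686762 to 25687091) had 22.4 ± 2.41 CPM in WT, against 22.3 ± 3.55 in KO libraries, a log2 fold change of -0.05 with a 95% interval of -0.52 to 0.42. The peak 2146 bp into the gene (25689148 to 25689897) had 40.1, 48.7, 37.3 and 43.6 CPM in WT and 30.2, 35.9 and 30.1 in KO. The KO libraries were all below the WT libraries there. Its log2 fold change was -0.41 (SE 0.18, edgeR adjusted p = 0.458). The peak 2415 bp beyond the other gene end (25707492 to 25708326), at 834 bp the widest of the 59, had 28.9, 22.1, 31.5 and 27.4 CPM in WT and 21.9, 16.4 and 17.6 in KO. Again the groups did not overlap, though WT replicate 2 and KO replicate 1 were nearly equal, and the log2 fold change was -0.53 (SE 0.23, edgeR adjusted p = 0.447). The remaining peak, 715 bp beyond the gene, had 6.62 ± 2.42 and 3.72 ± 1.88 CPM, and passed the filter on low counts only through WT libraries. With every peak within 100 kb counted for Tgfb1, whichever gene was nearest, the log2 fold change of the sum was 0.06; the cause was not tested. The summed levels of the myeloid markers did not overlap either, at 53.9 to 60.9 CPM in WT and 42.0 to 52.1 in KO. Of the 5 genes 3 had a peak (Itgam, Spi1 and Cd14), and each of these had overlapping groups alone. Cd14 was too low to test, and neither of the 2 tested was called. The part of this difference in the Tgfb1 result, and at the other loci with lower KO values, was not tested.

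At Il10, on chromosome 1 from 131019845 to 131024970, no peak covered a gene end. The nearest peaks lay 2819 bp inside the lower-coordinate end and 975 bp beyond the other. The 7 peaks summed to 87.6, 68.2, 71.3 and 71.5 CPM in WT and 70.9, 69.5 and 63.5 in KO. WT replicate 1 stood above the others, and the groups overlapped (76.3 ± 9.87 against 68.0 ± 3.95). The log2 fold change was -0.14, with a 95% interval of -0.41 to 0.13 (edgeR adjusted p = 0.781), that is, KO between 0.755 and 1.09 times WT. The most open Il10 peak was the distal one 25749 bp from the gene (130993662 to 130994096), with 26.6 ± 1.85 CPM in WT, against 23.1 ± 3.14 in KO libraries (log2 fold change -0.18).

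The Il10 peak with the smallest p lay 13109 bp beyond the gene on the other side (131038079 to 131038429). It had 9.33, 3.89, 9.33 and 6.09 CPM in WT replicates 1 to 4 and 2.37, 6.09 and 1.04 in KO. WT replicates 1 and 3 were high, KO replicates 1 and 3 low, and KO replicate 2 lay inside the WT range. The log2 fold change was -1.26 (SE 0.56), and the edgeR adjusted p was 0.457. Without KO replicate 2 it was -1.94 (adjusted p = 0.308), and without KO replicate 3 it was -0.88 (adjusted p = 0.806). The counts were few, a mean of 10.6 per library. The lowest peak of the locus (130987606 to 130987846) was not tested, with 3.99 ± 2.5 and 3.65 ± 2.26 CPM.

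Areg had the largest difference of the 9 sums and the fewest counts. The gene lies on chromosome 5 from 91139599 to 91148432. Its 2 peaks together had 9.37, 26.0, 14.0 and 16.2 CPM in WT and 10.0, 1.22 and 10.3 in KO. KO replicate 2 was far below the rest, WT replicate 2 far above, and KO replicates 1 and 3 lay above WT replicate 1. The means were 15.2 ± 5.39 and 7.2 ± 5.18, and the log2 fold change was -1.06 (SE 0.35, 95% interval -1.75 to -0.37, edgeR adjusted p = 0.156). Without KO replicate 2 it was -0.66 (adjusted p = 0.51), and without WT replicate 2 it was -0.77 (adjusted p = 0.404).

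The Areg peak over the start (91139354 to 91139850), which covers the CRE and TATA letters shown above, had 6.53, 13.0, 4.67 and 11.2 CPM in WT. It had 5.92 and 4.15 CPM in KO replicates 1 and 3, and no count in KO replicate 2. A floor of 3 read pairs, 6 counts because both mates were counted, is 3.65 CPM in that library, the limit that no count allows there. The groups overlapped, and the log2 fold change was -1.22 (SE 0.51, edgeR adjusted p = 0.417). Without KO replicate 2 it was -0.75 (adjusted p = 0.691), and without KO replicate 1 it was -1.96 (adjusted p = 0.349). The peak 12609 bp before the start had 6.34 ± 4.32 and 3.86 ± 2.52 CPM.

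**Figure D3:**
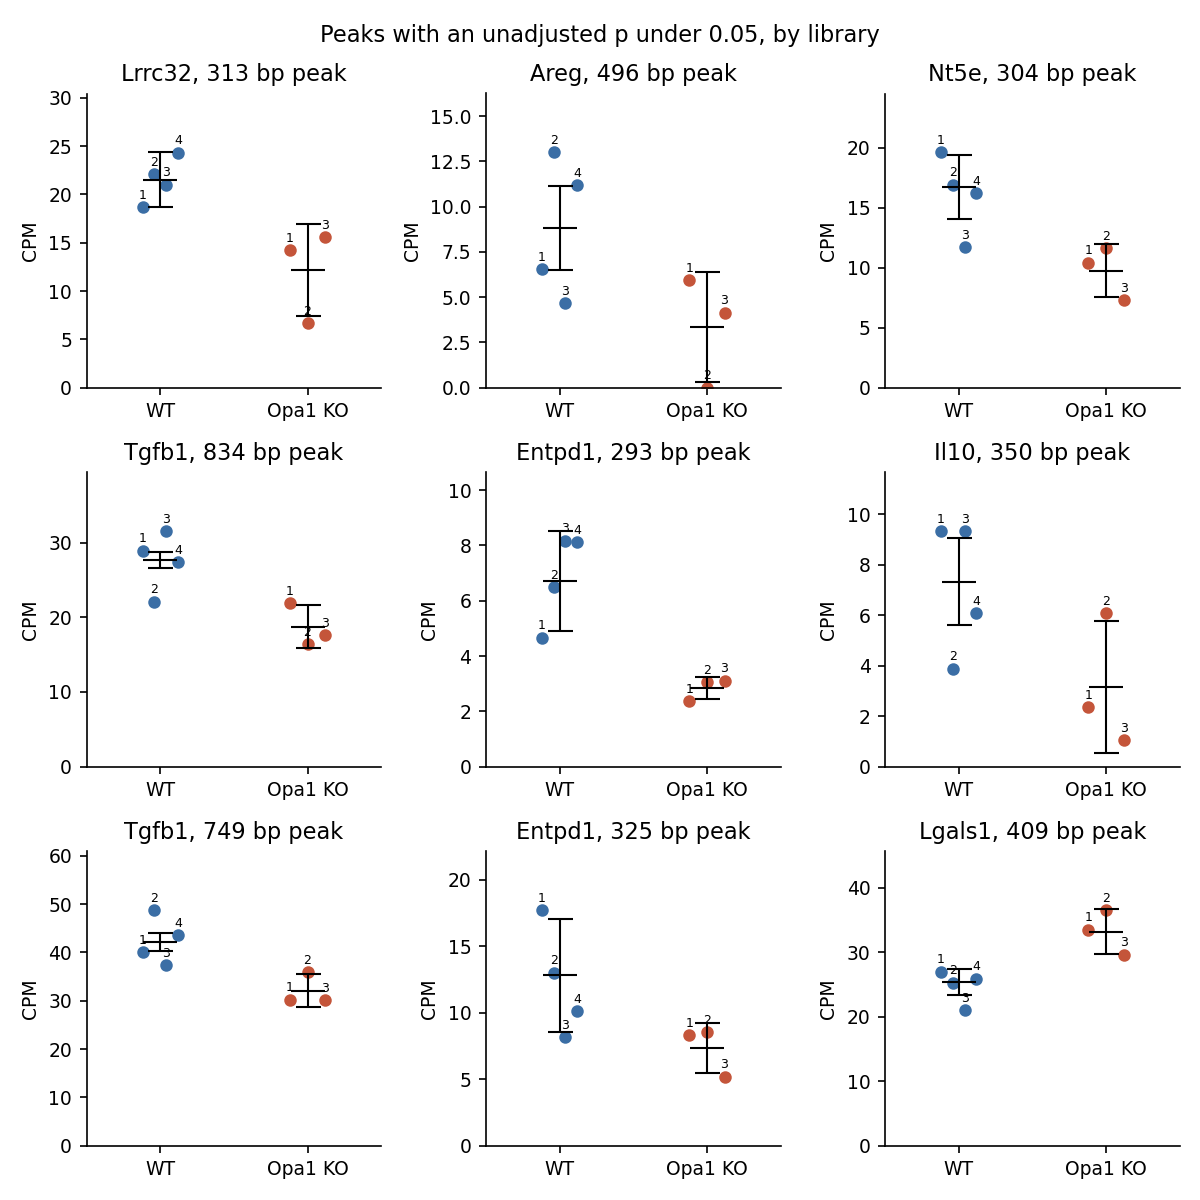
CPM in each library (vertical, from 0) at the 9 mediator peaks with an unadjusted p under 0.05, ordered by p, WT in blue and Opa1 KO in red, digits being replicate numbers and bars the mean ± SD with WT replicates 2 and 3 averaged. The KO libraries lie below the WT libraries in 8 panels on average, with overlap at Areg, Il10 and the 325 bp Entpd1 peak, and above them at Lgals1.

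Of the surface molecules, Lrrc32 had the peak with the smallest p. The gene lies on chromosome 7 from 98489305 to 98501831, and its 9 peaks summed to 114 ± 5.01 CPM in WT, against 104 ± 6 in KO libraries. KO over WT, the log2 fold change was -0.13, with a 95% interval of -0.35 to 0.09 (edgeR adjusted p = 0.735). The peak 2432 bp inside the gene (98491737 to 98492050) had 18.7, 22.1, 21.0 and 24.3 CPM in WT and 14.2, 6.7 and 15.6 in KO. The groups did not overlap, and KO replicate 2 was the lowest. The log2 fold change of -0.78 (SE 0.28) had an edgeR adjusted p of 0.328. Without KO replicate 2 it was -0.53 (adjusted p = 0.617). The neighbouring peak 506 bp inside the gene (98489811 to 98490119) had 15.9, 11.7, 21.0 and 16.2 CPM in WT and 22.5, 15.8 and 15.6 in KO. The groups overlapped, WT replicates 2 and 3 being the lowest and highest WT libraries, and the log2 fold change was 0.18 (SE 0.27). Of the 9 Lrrc32 peaks, 4 were below 0 and 5 above.

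At Entpd1 (chromosome 19, 40612366 to 40741602) all 13 peaks overlapped the gene. They summed to 280.3, 276, 314 and 282 CPM in WT and 259.8, 283 and 293 in KO, with overlap. Its fitted log2 fold change was -0.05 with a 95% interval of -0.20 to 0.09, KO lying between 0.87 and 1.07 times WT (edgeR adjusted p = 0.87). The peak over the first start (40612108 to 40612563), which also overlaps Tctn3, was the most open of all member peaks, with 101, 88.3, 117 and 99.9 CPM in WT and 99.5, 101 and 95 in KO. The KO libraries lay within the WT range. Its log2 fold change was -0.04 (95% interval -0.27 to 0.18).

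The second Entpd1 start gave the lowest fold change of any tested member peak, on few counts and with the test open to it only through WT. Its peak (40659610 to 40659903) had 4.66, 6.49, 8.17 and 8.12 CPM in WT and 2.37, 3.05 and 3.11 in KO. Each KO library was below each WT library, on a mean of 9.86 counts per library. This gave a log2 fold change of -1.28 (SE 0.56, 95% interval -2.40 to -0.15, edgeR adjusted p = 0.449), and whether this differed from the first start was not tested. The peak at the second start passed the filter on low counts only through WT replicates 2, 3 and 4. That it was tested thus depended on its higher WT values, and it was not tested with any of these replicates left out. Its KO counts were 8, 5 and 6, near the floor of 6 counts. The adjacent peak 326 bp after that start (40660096 to 40660267) was too low to test, with 3.44 ± 0.353 CPM in WT, against 5.25 ± 2.03 in KO libraries. The pair of peaks thus had their means in opposite order.

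Farther into Entpd1, the peak 19864 bp after the second start (40679634 to 40680026) had 28.9, 26.6, 28.6 and 31.4 CPM in WT and 34.4, 32.9 and 44.1 in KO. The KO libraries were all higher, with a log2 fold change of 0.35 (SE 0.19, edgeR adjusted p = 0.577). The peak 18919 bp short of the far gene end (40722358 to 40722683) had 17.7, 13.0, 8.17 and 10.1 CPM in WT and 8.29, 8.53 and 5.19 in KO. There WT replicate 3 lay among the KO libraries, and the log2 fold change was -0.73 (SE 0.36, edgeR adjusted p = 0.519). Of the 11 Entpd1 peaks tested, 9 were below 0, where 50.3% of all tested peaks were. The Entpd1 peaks left out for low counts had the higher mean in KO, at 1.85 and 5.28 CPM in WT and KO for one and 3.44 and 5.25 for the other. So the count of 9 depends in part on which low peaks passed the filter. The peak from 40650167 to 40650413 was not tested, with 0.933, 5.19, 0 and 2.03 CPM in WT and 6.81, 4.87 and 4.15 in KO. The groups overlapped there, WT replicate 2 lying inside the KO range.

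Nt5e (chromosome 9, 88327609 to 88372089) had nearly even sums. They were 307, 286, 296 and 297 CPM in WT and 311, 264 and 297 in KO, and overlapped. KO over WT, the log2 fold change was -0.02 with a 95% interval of -0.17 to 0.12, KO lying between 0.89 and 1.09 times WT (edgeR adjusted p = 0.96). Of its 14 peaks 7 were below 0 and 7 above. The most open, 1447 bp after the start (88329056 to 88329727), had 76.4 ± 6.45 CPM in WT, against 80.9 ± 12.9 in KO libraries (log2 fold change 0.13, SE 0.13). The peak over the start (88327412 to 88327903) had 36.8, 40.9, 30.9 and 37.5 CPM in WT and 34.4, 20.7 and 30.1 in KO, with overlap. The peak 4903 bp after the start (88332512 to 88332816) had 19.6, 16.9, 11.7 and 16.2 CPM in WT and 10.4, 11.6 and 7.27 in KO. The groups did not overlap, though WT replicate 3 and KO replicate 2 were nearly equal, and the log2 fold change was -0.73 (SE 0.31, edgeR adjusted p = 0.441). The distal peaks 85651 and 53916 bp before the start had 34.5 ± 3.47 and 30.4 ± 5.15 CPM in WT, close to the start peak in level, and 36.2 ± 7.18 and 32.0 ± 9.75 in KO.

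**Figure D4:**
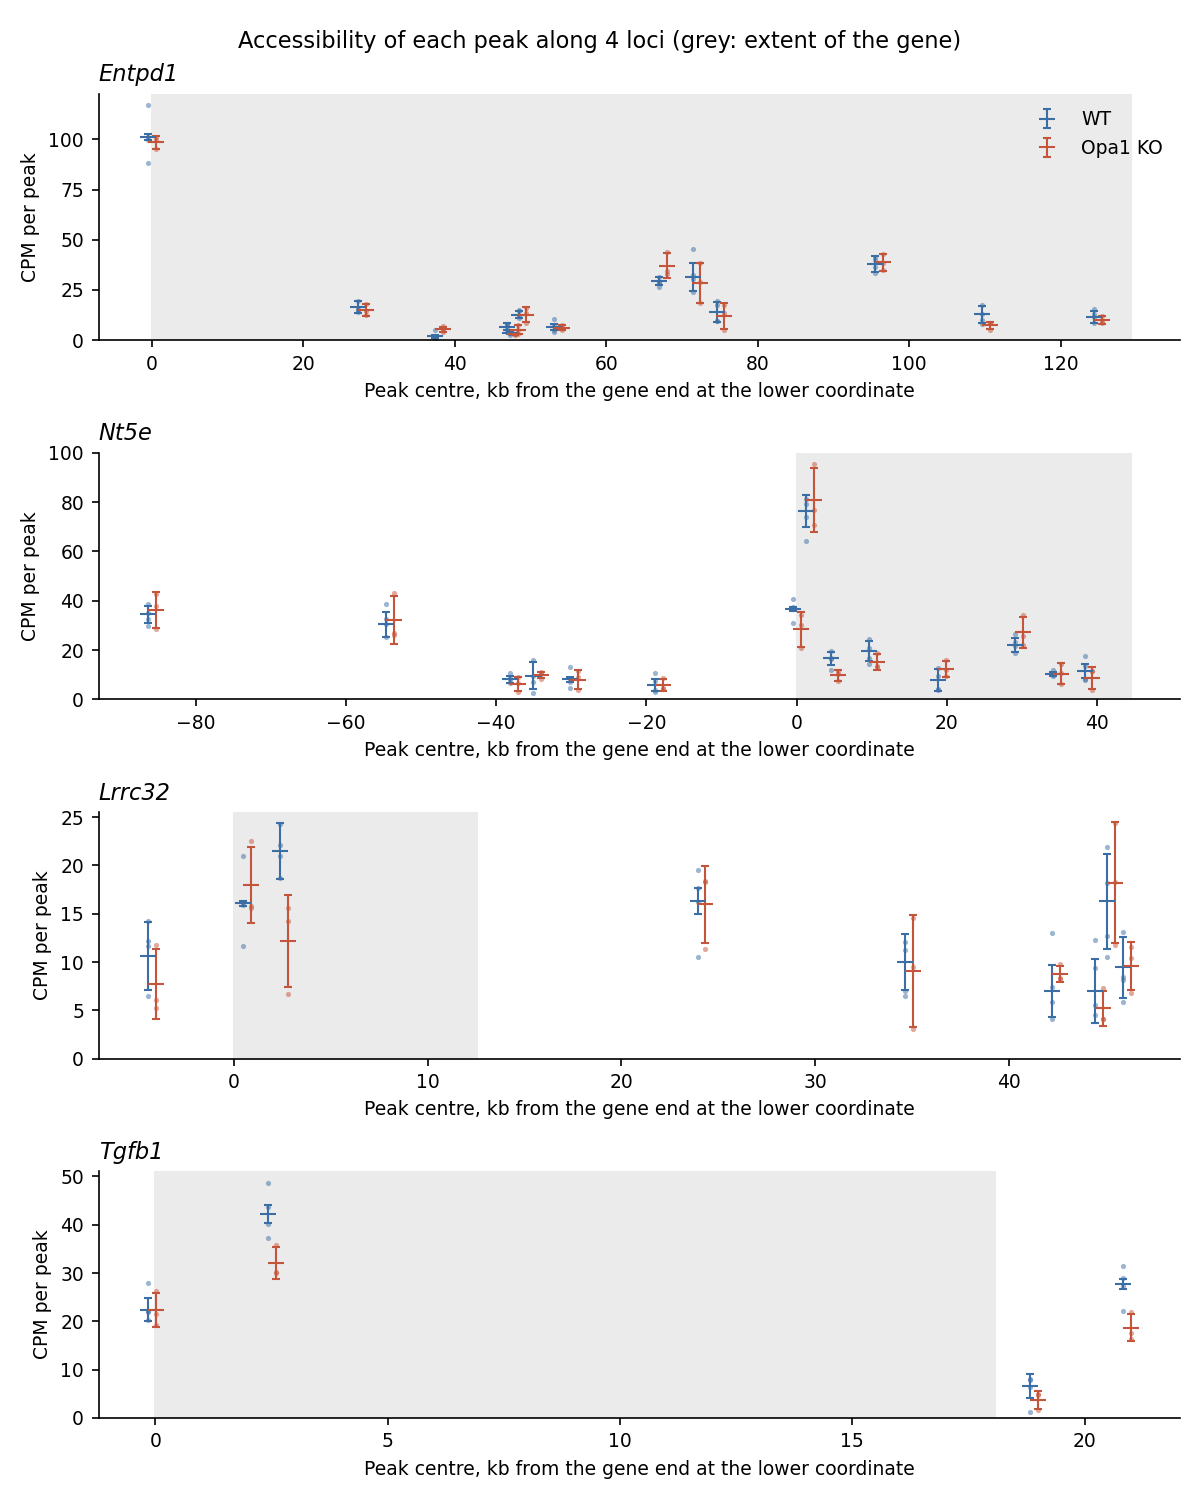
CPM of each peak (vertical, from 0) against the distance of its centre from the lower-coordinate gene end in kb (horizontal) at Entpd1, Nt5e, Lrrc32 and Tgfb1. Points are libraries, bars the mean ± SD (WT blue, KO red, WT replicates 2 and 3 averaged), and grey spans the gene. The largest peaks, at 101 CPM in Entpd1 and 76.4 in Nt5e in WT, have overlapping groups, and the Tgfb1 peaks near 2 and 21 kb do not.

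Of the released effectors, Lgals1 had the 1 peak that was above WT in KO at an unadjusted p under 0.05. The gene lies on chromosome 15 from 78926725 to 78930465. The peak within it (78928046 to 78928455), 1321 bp from the lower-coordinate end, had 27.0, 25.3, 21.0 and 25.9 CPM in WT and 33.5, 36.5 and 29.6 in KO. Every KO library was above every WT library. The means were 25.4 ± 1.99 and 33.2 ± 3.49, with a log2 fold change of 0.41 (SE 0.21, 95% interval 0.00 to 0.82, edgeR adjusted p = 0.526). The unadjusted p of this peak lay at the edge of 0.05. It was 0.0493 in edgeR, 0.0603 in edgeR with counts halved, 0.0543 in DESeq2 and 0.0456 in limma-voom. The flanking peaks, 2808 bp before and 1221 bp after the gene, had 15.0 ± 2.08 and 14.7 ± 7.75 CPM in WT and 13.8 ± 2.11 and 15.8 ± 2.29 in KO. The 3 together had a log2 fold change of 0.21, with a 95% interval of -0.08 to 0.51 (edgeR adjusted p = 0.637).

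Gzmb and Fgl2 had the fitted sums nearest to no difference, at 1.01 and 0.989 times WT. Nt5e was close to them at 0.984. Its 95% interval of 0.89 to 1.09 was narrower than that of the Fgl2 sum, 0.672 to 1.45. Gzmb lies on chromosome 14 from 56258836 to 56262334, and its 6 peaks summed to 122, 125, 147 and 145 CPM in WT and 158, 138 and 107 in KO. The KO libraries spanned the WT range on both sides. Both means were 134, with SDs of 11.9 in WT and 25.6 in KO, and the log2 fold change was 0.01 (95% interval -0.19 to 0.22, edgeR adjusted p = 0.988). The peak over the start had 26.5 ± 2.17 and 26.4 ± 5.79 CPM. The highest Gzmb peak, 13461 bp before the start (56275795 to 56276497), had 37.1 ± 2.14 and 33.1 ± 4.45. The peak with the smallest p, 21922 bp before the start (56284256 to 56284830), had 24.8 ± 4.97 and 28.7 ± 11.0, a log2 fold change of 0.27 that was -0.02 without KO replicate 1. The granzyme genes are close copies, and the sources used here do not give how reads that map to several places were counted.

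The Fgl2 peak (chromosome 5, 21372483 to 21372828) covers its start and also lies in Ccdc146. It had 18.7, 16.9, 9.33 and 19.3 CPM in WT and 16.9, 17.7 and 13.5 in KO. WT replicate 3 was the lowest, and the groups overlapped. Its fitted log2 fold change was -0.01 with a 95% interval of -0.57 to 0.55, so KO lay between 0.672 and 1.47 times WT (edgeR adjusted p = 0.996).

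**Figure D5:**
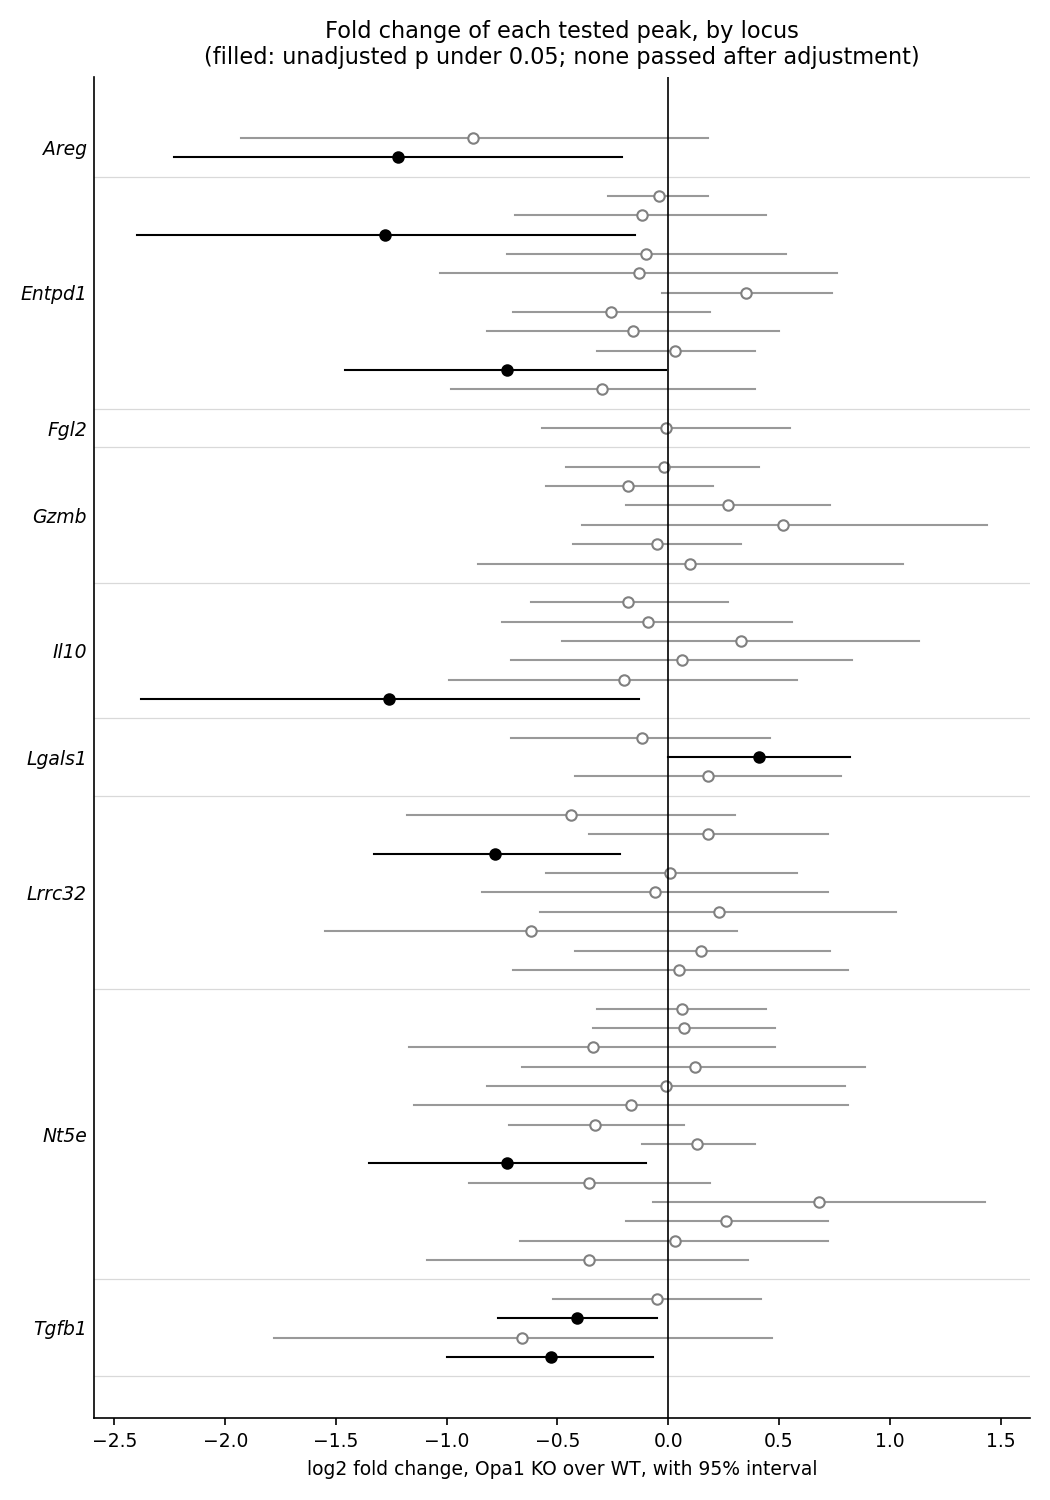
Log2 fold change of KO over WT with its 95% interval (horizontal) for the 56 tested peaks, one per line, grouped by locus and ordered by position. Filled points have an unadjusted p under 0.05; 8 of these 9 lie below 0, and the Lgals1 one above.

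Peaks that overlapped their gene and peaks outside it were described apart. Of 28 tested peaks that overlapped the gene, 19 were below 0, 7 had an unadjusted p under 0.05 and the groups did not overlap at 6 (67.9%, 25.0% and 21.4%). Of 28 outside, 16 were below 0, 2 had such a p and the groups did not overlap at 1 (57.1%, 7.14% and 3.57%). Over all tested peaks these shares were 50.3%, 9.46% and 9.32%, so those outside the gene had no larger a share than all peaks on the last 2 measures. The median log2 fold changes were -0.112 and -0.054. The difference between them was not tested. Of the 28 that overlapped, 11 were at Entpd1 and 8 at Nt5e, and no Entpd1 peak lay outside, so the split is partly one of locus. Shares over all peaks inside genes, or all outside, were not computed.

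A list of 43 partner genes of these mediators held receptors, activators, processing enzymes, related ligands and transcription factors of Il10. Of these 38 had a peak and 34 gene sums were tested. None was called in edgeR, 13 were above 0 and 21 below, with a median log2 fold change of -0.04, and 6 had an unadjusted p under 0.05 where 11.4% of all genes did. The smallest p was at Havcr2, which encodes TIM-3, a receptor of galectin-9. Its 4 peaks had 77.3, 72.1, 80.1 and 72.5 CPM in WT and 50.8, 65.8 and 54.2 in KO, without overlap. This gave a log2 fold change of -0.43 (SE 0.14, edgeR adjusted p = 0.163), so it did not pass.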

How the data were processed

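The deposited data are raw counts of reads in 50213 peaks for 7 libraries. Per the submitters' processing notes, the build was mm10 and the tools were bedtools 2.25.0, BWA 0.7.16, MACS2 2.1.1, Picard 2.9.4, SAMtools 1.9 and Trimmomatic 0.36. The sources used here do not state settings, how peaks were merged or whether reads were shifted for the transposase. A shift moves peak edges by a few bases, and a set called on pooled reads favours the deepest libraries. Positions are printed as deposited, and their first base may be numbered 0 or 1. Between 78% and 86.3% of counts per library were even, as counting both mates gives.

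Peaks were assigned with the RefSeq gene table of GRCm38.p6, the assembly mm10 names: 32474 overlapped a protein-coding gene (a peak on several counted for each) and 14995 took the nearest within 100 kb. Which gene a site acts on is not known from its position.

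Peaks and gene sums were each tested with edgeR 4.0.16 (quasi-likelihood, robust, TMM, filterByExpr with minimum count 10 and total 15) in R 4.3.3, genotype as the only term, with Benjamini-Hochberg adjustment over all tested peaks (38041) or genes (13290) at 0.05. CPM uses TMM factors. Intervals are 95% and come from the fit. Alternatives used DESeq2 1.42.0 and limma 3.58.1, and summaries and plots Python 3.11.15, pandas 2.3.3, NumPy 2.4.6 and matplotlib 3.10.9. The main edgeR fit was first tested on simulated counts, for peaks and for gene sums, and the alternatives were not. The labels' protocols name no molecular tags, so PCR copies may count again and the floor covers counting error only. The series' design text counts 4 and 3 mice, and does not say whether each library is 1 mouse, so p-values measure the spread between libraries, which may be technical.

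Members and lists were chosen with earlier results of these data known. One marker gene is not reported here. Peaks were named when they had the highest count or smallest p of their gene, an unadjusted p under 0.05, or groups without overlap. Other peaks given with values (start, neighbouring, distal and untested ones) were chosen after their values were seen.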

Additional observations from a re-analysis of the deposited data

Results flagged for a closer look

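Among the 4 WT libraries, 2 gene sums had a library far from the others by Dixon's test at 95%. The Il10 sum was 87.6 CPM in WT replicate 1, with the other WT libraries from 68.2 to 71.5. The Entpd1 sum was 314 CPM in WT replicate 3, with the others from 276 to 282. In all, 26 sums and peaks were checked, and chance flags about 1 in 20.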

How the results depend on the processing

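No alternative called a member peak or member gene sum. Over all peaks, 33 were called (18 higher), against 60 with a mean count of 20 or more, 55 by DESeq2, 53 by limma-voom, 79 with counts halved, and 15 to 43 with 1 library left out. Total counts gave 39 (16 higher) and loess offsets 37 (12 higher). Over all gene sums, 46 were called, against 18 by DESeq2, 79 with counts halved, and 8 to 67 with 1 library left out. With the replicate number as a replicate block, 13 peaks and 24 gene sums were called. With WT replicates 2 and 3 summed, 42 peaks and 60 gene sums were called. Correlations of deviations between same-numbered libraries were 0.011, -0.012 and 0.004, so no pairing was detected. At median counts of 14 to 30 per peak, counting noise could hide a shared effect, so pairing is not excluded.

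Of 458 values of single genes and peaks under alternatives, 427 kept their direction and side of the threshold and 31 changed sign, at 11 results; the cause was not tested. Fgl2's sum was 0.06 with loess, 0.02 by limma-voom, 0.10 with the replicate block and 0.10 with every peak within 100 kb. Its peak was 0.01 with loess, 0.01 with no filter, 0.03 by limma-voom and 0.11 with the block. Gzmb's sum was 0.00 with total counts, -0.02 with loess, -0.04 from overlapping peaks only, -0.12 within 20 kb and -0.03 with every peak. Il10's sum was 0.03 from overlapping peaks only, and with every peak Tgfb1's was 0.06 and Entpd1's 0.01. With 1 library left out, the ranges were -0.08 to 0.03 for the Nt5e sum, -0.20 to 0.09 for Fgl2 and -0.15 to 0.14 for Gzmb. Those of peaks were -0.10 to 0.02 at the first Entpd1 start, -0.20 to 0.10 at Fgl2, -0.02 to 0.54 at Gzmb 56284256, -0.04 to 0.31 at Lrrc32 98489811 and -0.01 to 0.22 at Nt5e 88329056. DESeq2 gave no adjusted p for the Areg 91139354, Il10 131038079, Entpd1 40659610, Entpd1 40722358 and Nt5e 88332512 peaks.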
